A study of Mus musculus with 10 samples.

Results

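Chromatin accessibility was followed at 10 genes that encode the connexins and the intercalated disc proteins of atrial cardiomyocytes: Gja1, Gja5, Gjc1, Pkp2, Dsp, Dsg2, Jup, Cdh2, Ctnna3 and Tjp1. Their regions were taken from a table of 10010 genomic regions that the study had deposited as differing between genotypes. A region was counted for a gene when it overlapped the RefSeq span of that gene. A region outside every protein-coding span was counted for the nearest gene, up to 100 kb away. This gave 23 of the 10010 regions, at 8 of the 10 genes, and all 23 lay outside the span of any other protein-coding gene. Gjc1 and Dsg2 had no listed region. Of the 21900 protein-coding genes of the annotation, 6078 had at least 1. Only regions called as different are listed, so a gene without one is not thereby shown to be unaltered, and a difference at a listed region describes a region chosen for differing in these same animals.

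The libraries were ATAC-seq libraries, in which a transposase cuts accessible DNA and the number of reads over a region measures how open it is. Mice heterozygous for the Tbx5G125R point mutation, made with CRISPR-Cas9 and modelled on a human variant in the T-box transcription factor Tbx5, were compared with Control mice, 4 animals each and 8 to 12 weeks old. The mutation is constitutive, so every cell of the mutant animals carries it. Nuclei from the left and right atria of 1 mouse were pooled and sorted for PCM1, a protein around cardiomyocyte nuclei, so that left and right atrium cannot be told apart and other cell types are expected only as residue of the sort. Control animals 1 and 3 had 2 libraries each, which were summed, giving 10 libraries for 8 animals. In such pooled nuclei a smaller share of open nuclei and a lower opening in each nucleus cannot be told apart.

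The sum of read counts over the listed regions ran from 630392 in Control animal 2 to 2776475 in Control animal 3, and from 1716962 to 2414261 in the Tbx5G125R animals. Counts below are scaled read counts per region, with no correction for region width. The table holds no library total and mostly lists regions moving in 1 direction, so the scale between genotypes was taken from the counts. The log2 ratios of the 10010 regions left an empty gap 0.87 wide, with 1164 regions below it and 8846 above it, and no change was set at the lowest density inside it. The study itself reported 8846 sites of increased accessibility, but fewer of decreased accessibility than these 1164. Which of the lower regions below are among its reported sites cannot be told here. On this scale 88.4% of all listed regions were called higher in Tbx5G125R and 11.6% lower (edgeR's quasi-likelihood test, Benjamini-Hochberg adjusted p under 0.05). Each direction below rests on that choice, which is referred to as the gap scale. Over all 10010 regions the median log2 fold change was 0.78 on it, 0.34 with no change set at the upper edge of the gap, 1.22 at the lower edge, 1.06 with no scaling between libraries, 0.03 with no change set at the median of the table and 0.01 under TMM factors. Listed regions were found at 10 of 10 markers of atrial cardiomyocytes searched (53 regions, 43 higher and 10 lower), with summed scaled counts of 9121 to 9425 in Control and 15571 to 17448 in Tbx5G125R. Markers of other cells were mostly higher on the gap scale, but not all. There were 14 regions at 3 of 7 endothelial and endocardial genes (10 higher and 4 lower), with sums of 675.2 to 889.8 in Control and 1421 to 1496 in Tbx5G125R. The 4 lower ones were all at Npr3, which had no higher region, and the higher ones were at Kdr (9) and Pecam1 (1). There were 2 higher regions at 1 of 6 fibroblast genes (275.9 to 318.4 against 473.9 to 524.0), 1 at 1 of 5 smooth muscle and pericyte genes (79.6 to 142.3 against 166.6 to 197.8) and 2 at 2 of 5 sinus node and conduction genes (272.6 to 344.8 against 439.5 to 489.3). None was listed at 4 leukocyte genes. Their part in the values below was not tested.

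Cardiomyocytes are joined end to end at intercalated discs. Gap junction channels built of connexins pass the electrical impulse from cell to cell, and in the atria connexin 40 (Gja5) and connexin 43 (Gja1) carry most of it. Desmosomes tie the intermediate filaments of neighbouring cells together and adherens junctions tie their actin filaments together. Loss of desmosomal proteins causes arrhythmogenic cardiomyopathy in people, and Gja5 is an established Tbx5 target in the mouse heart.

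Of the 23 regions, 17 were higher in Tbx5G125R on the gap scale and 6 were lower. With no change set at the median of all listed regions, 7 of the 23 had a positive fold change, and 6 had one under TMM factors. The 10 that turned at the median were Gja1-1, Gja5-3, Gja5-4, Dsp-1, Jup-3, Jup-4, Cdh2-1, Cdh2-2, Ctnna3-1 and Tjp1-1, each at a value that missed the threshold. The 6 lower regions stayed below 0 under every scale tried, though not all were called. At the upper edge of the gap 7 of the 17 were still called higher, and at the lower edge 2 of the 6 were still called lower. Lower regions made up 26.1% of the 23, against 11.6% of all listed regions. All 5 connexin regions and both Tjp1 regions were higher. At the desmosome 6 of 10 were higher and 4 lower, the 4 lower ones all at Pkp2. At the adherens junction 4 of 6 were higher and 2 lower. In none of the 17 higher regions did an animal of one genotype overlap the other, against 97.0% of all higher regions without overlap. In the lower regions 3 of 6 were free of overlap, against 66.3% of all lower regions. The differences were mostly of moderate size: the median log2 fold change was 0.74 for the 17 and -0.75 for the 6, beside 0.82 and -0.91 over all higher and all lower regions. At least a 2-fold difference was reached by 2 of the 17 (11.8%) and 2 of the 6 (33.3%), beside 27.8% of all higher and 36.6% of all lower regions.

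**Figure D1:**
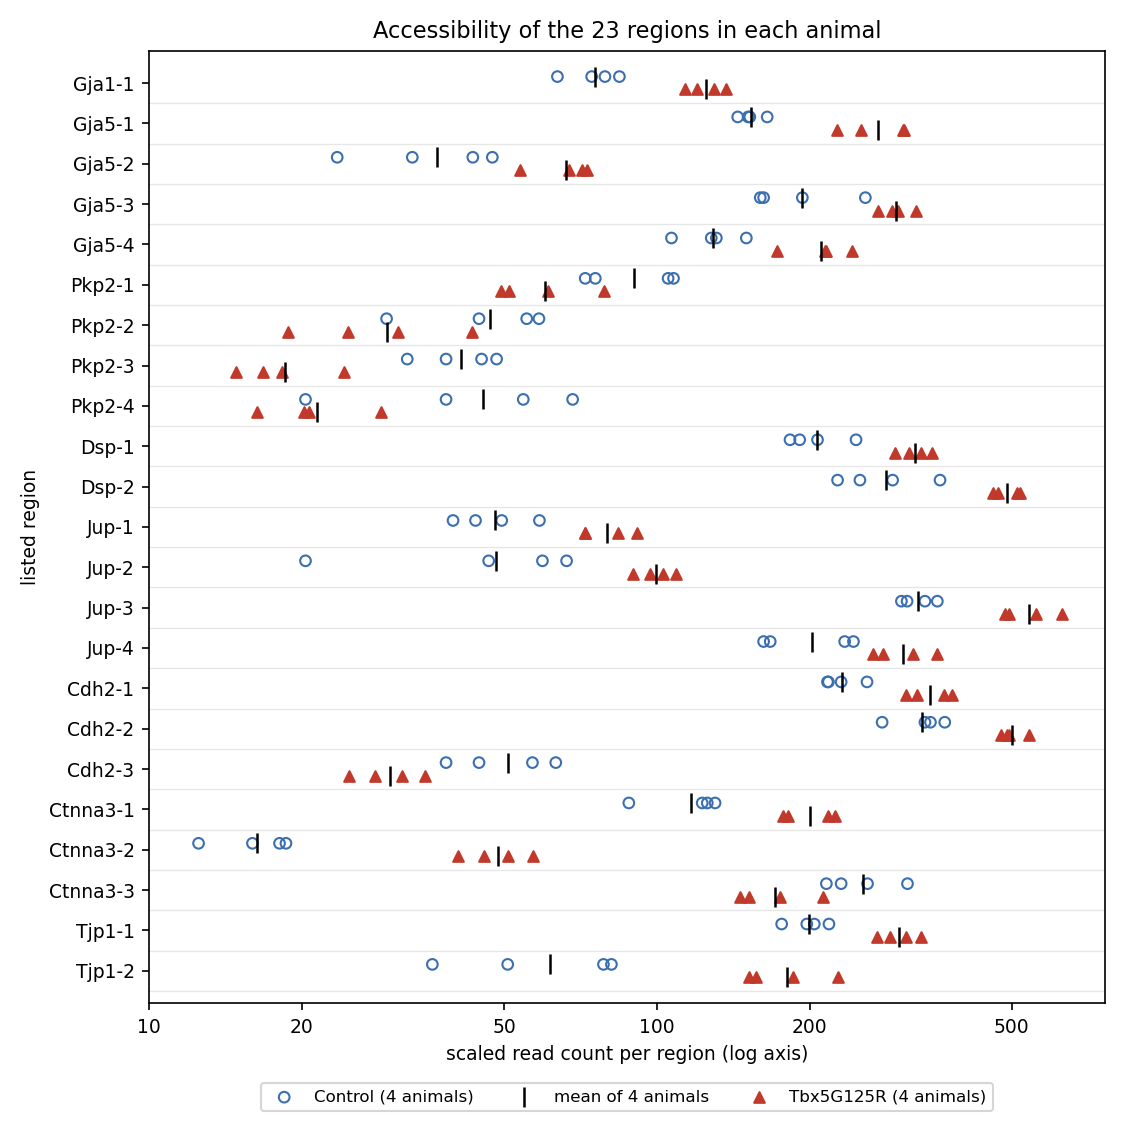
Scaled read count (log axis) of each of the 23 regions in the 4 Control animals (open circles) and the 4 Tbx5G125R animals (triangles), with the mean of each group as a tick. On the gap scale the triangles lie to the right of all circles in 17 rows and to the left of all circles at Pkp2-3, Cdh2-3 and Ctnna3-3, whereas the groups overlap at Pkp2-1, Pkp2-2 and Pkp2-4. With no change set at the median of the table, 10 of the 17 higher regions would turn below 0.

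Of the 17 higher regions 5 covered a promoter of their own gene, at Gja5, Dsp, Jup, Ctnna3 and Tjp1. Of all higher regions, 31.3% covered a tabled promoter. No lower region of the 6 did, and 1.46% of all lower regions did. Pkp2 and Cdh2, which held all of the 6 but Ctnna3-3, have no tabled promoter. Whether their regions covered a promoter of their own gene could therefore not be seen. The 5 promoters are shown because they are the stretches of these genes where the region and the start of the transcript coincide. Each is given 5′ to 3′ on the strand of the gene, from 250 bases before to 50 after the RefSeq start (GRCm38.p6, the assembly of mm10). Capitals mark exact matches on either strand to GGGCGGG, 1 form of the letters bound by SP and KLF factors.
Gja5 promoter, chr3:97032152-97032451: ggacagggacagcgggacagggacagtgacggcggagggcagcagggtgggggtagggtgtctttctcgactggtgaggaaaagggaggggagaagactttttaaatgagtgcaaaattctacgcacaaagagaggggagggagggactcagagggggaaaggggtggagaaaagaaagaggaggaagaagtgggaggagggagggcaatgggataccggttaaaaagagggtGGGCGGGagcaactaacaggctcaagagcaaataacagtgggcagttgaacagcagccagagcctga
Dsp promoter, chr13:38151044-38151343: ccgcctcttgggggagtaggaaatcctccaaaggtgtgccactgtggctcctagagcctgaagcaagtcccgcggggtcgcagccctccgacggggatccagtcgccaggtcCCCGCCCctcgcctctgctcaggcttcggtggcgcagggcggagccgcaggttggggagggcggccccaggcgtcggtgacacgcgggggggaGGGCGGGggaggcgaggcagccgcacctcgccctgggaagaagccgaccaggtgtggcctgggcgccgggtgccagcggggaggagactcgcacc
Jup promoter, chr11:100397741-100398040: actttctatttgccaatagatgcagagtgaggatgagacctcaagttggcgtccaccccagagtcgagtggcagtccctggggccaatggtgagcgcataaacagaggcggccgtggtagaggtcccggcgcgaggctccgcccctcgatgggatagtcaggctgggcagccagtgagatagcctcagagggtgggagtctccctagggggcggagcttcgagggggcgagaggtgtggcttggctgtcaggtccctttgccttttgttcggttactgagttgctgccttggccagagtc
Ctnna3 promoter, chr10:63429848-63430147: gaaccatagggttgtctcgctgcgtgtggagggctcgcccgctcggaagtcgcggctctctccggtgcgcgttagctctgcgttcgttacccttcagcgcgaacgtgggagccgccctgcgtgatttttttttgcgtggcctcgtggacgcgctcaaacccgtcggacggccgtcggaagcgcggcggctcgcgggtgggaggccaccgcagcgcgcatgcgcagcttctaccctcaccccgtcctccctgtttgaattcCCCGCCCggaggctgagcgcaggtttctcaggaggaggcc
Tjp1 promoter, chr7:65371195-65371494: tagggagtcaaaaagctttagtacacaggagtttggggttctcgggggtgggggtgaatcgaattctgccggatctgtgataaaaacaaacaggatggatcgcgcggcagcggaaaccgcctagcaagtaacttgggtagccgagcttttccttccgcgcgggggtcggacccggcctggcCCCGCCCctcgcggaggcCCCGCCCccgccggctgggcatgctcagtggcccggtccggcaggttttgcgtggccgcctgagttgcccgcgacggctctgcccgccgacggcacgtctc

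The promoters matched in the RefSeq table were those of 6 of the 10 genes, Gja1 among them, whose promoter carried no listed region. GGGCGGG or its complement stood at 4 of the 5 promoters above, with 2 matches each at Dsp and Tjp1, 1 each at Gja5 and Ctnna3 and 0 at Jup, and at 25.6% of the 32851 promoters of the table. In Gja5 the match began 17 bases before the start. The other motifs, searched on both strands and sharing no overlap with GGGCGGG, were AGGTGTNA for T-box factors, TAAAAATA for MEF2 and AGATAAG for GATA factors. None of the 5 windows held one of them, and 3.03%, 2.72% and 3.04% of all promoters did. Only the exact letters of each motif, GGGCGGG included, were searched. A window without a match may therefore still hold a looser form that the factors bind. The G and C content of the 5 ranged from 55.7% at Gja5 to 73.0% at Dsp, above the median of 52.7% over all promoters.

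Gja5 encodes connexin 40, the channel protein of atrial muscle and of the fast conduction system. It had 4 listed regions along 44.75 kb, all higher in Tbx5G125R on the gap scale. The promoter region, Gja5-1 (chr3:97031751-97032750), held 152.4, 151.3, 144.3 and 164.9 scaled counts in Control animals 1 to 4 and 252.7, 307.1, 226.9 and 305.5 in Tbx5G125R animals 1 to 4. The 4 Control values lay close together, and every Tbx5G125R value was above them. The log2 fold change was 0.84 ± 0.12 (standard error; edgeR adjusted p = 4.84e-07).

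The largest fold change at Gja5 was that of Gja5-2 (chr3:97051751-97052250), 19.6 kb into the 21.2-kb span. It also had the lowest counts of the 4, with 33.0, 47.4, 23.5 and 43.4 scaled counts in Control and 71.2, 72.8, 53.8 and 67.2 in Tbx5G125R. The groups were apart by 6.41 scaled counts between the highest Control and the lowest Tbx5G125R animal, and the log2 fold change was 0.94 ± 0.24 (edgeR adjusted p = 0.000551).

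Beyond the gene, Gja5-3 (chr3:97063001-97063500) lay 9367 bp past the span. Its Control values were 159.8, 257.4, 162.3 and 193.5 and its Tbx5G125R values 323.9, 290.4, 272.0 and 298.6. Control animal 2, the animal with the fewest reads, came closest to the Tbx5G125R animals here, and the log2 fold change was 0.68 ± 0.12. Gja5-4 (chr3:97075751-97076500), 22117 bp past the span, rose from 129.0 ± 17.7 to 211.0 ± 28.9 scaled counts (mean ± SD, n = 4 animals each), a log2 fold change of 0.73. The 4 log2 fold changes of Gja5 ranged from 0.68 to 0.94, over levels that differed several-fold. The median of all higher regions was 0.82 and their smallest value 0.45, so the listing itself leaves out small changes.

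Gja1 encodes connexin 43, the main connexin of working myocardium. Its only region, Gja1-1 (chr10:56468751-56469500), lay 78332 bp beyond the span and is tied to the gene by distance alone. It held 63.7, 79.0, 84.4 and 74.4 scaled counts in Control and 137.1, 120.1, 129.8 and 113.7 in Tbx5G125R, with a log2 fold change of 0.73 ± 0.16 (edgeR adjusted p = 0.000109). All 4 Tbx5G125R animals lay above all 4 Control animals. A limit of 500 kb would add 1 region to Gja1, 476332 bp away, which was lower in Tbx5G125R (log2 fold change -1.03). Gjc1 encodes connexin 45, the connexin of the nodes and the conduction system. Within 500 kb of it there were 17 listed regions, all assigned to other genes, the nearest 194727 bp away. All of them were higher on the gap scale, as were 88.4% of all listed regions.

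The desmosome gave values on both sides. Pkp2 encodes plakophilin 2, the armadillo protein that links desmosomal cadherins to desmoplakin. It was the only one of the 8 genes whose regions were all lower on the gap scale, with 4 regions over 67.0 kb. Pkp2-3 and Pkp2-4 lay beyond the span and are tied to the gene by distance alone. At both, as at Gja1-1, Gja5-3, Gja5-4 and Jup-4, an annotated gene outside the protein-coding set overlapped the region or lay nearer. Pkp2-3 (chr16:16278251-16279000), 5539 bp past the high-coordinate end of the span, had 48.3, 45.2, 38.4 and 32.2 scaled counts in Control and 24.2, 16.7, 18.3 and 14.8 in Tbx5G125R. The groups did not overlap, and the log2 fold change was -1.16 ± 0.29 (edgeR adjusted p = 0.000505).

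Pkp2-4 (chr16:16281751-16282250), 2.75 kb further on, had 68.3, 20.3, 38.4 and 54.6 in Control and 20.2, 20.7, 16.3 and 28.7 in Tbx5G125R. Control animal 2 lay among the Tbx5G125R animals, while the other 3 Control animals lay above all of them. The log2 fold change was -1.14 ± 0.31 (edgeR adjusted p = 0.000989), and it was -1.37 at its most negative and -0.93 at its least when single animals were left out.

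The 2 regions inside Pkp2 were lower by less, and the genotypes overlapped at both. Pkp2-1 (chr16:16215251-16215750), centred 2.16 kb from the low-coordinate end, had 105.2, 72.3, 107.9 and 75.6 scaled counts in Control and 51.1, 61.0, 78.8 and 49.4 in Tbx5G125R. Tbx5G125R animal 3 was above 2 of the Control animals, those with 1 library each. The log2 fold change was -0.62 ± 0.20 (edgeR adjusted p = 0.00373). Pkp2-2 (chr16:16225001-16225500) had 58.6, 29.4, 55.4 and 44.6 in Control and 30.9, 24.6, 43.3 and 18.8 in Tbx5G125R. Control animal 2 was again low, below 2 of the Tbx5G125R animals, and the log2 fold change was -0.75 ± 0.27 (edgeR adjusted p = 0.0109). With no change set at the lower edge of the gap, Pkp2-3 and Pkp2-4 were still called lower (edgeR adjusted p = 0.0213 and 0.0330), whereas Pkp2-1 and Pkp2-2 were not (adjusted p = 0.354 and 0.272). With no scaling between libraries Pkp2-3 also lost its call (log2 fold change -0.90, edgeR adjusted p = 0.0539), as did Pkp2-1 and Pkp2-2 (adjusted p = 0.305 and 0.219), and only Pkp2-4 was called (adjusted p = 0.0402). No listed region higher in Tbx5G125R lay closer to Pkp2 than 271789 bp.

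Dsp encodes desmoplakin, which anchors the intermediate filaments. Both of its regions sat at the start of the gene. Dsp-2 (chr13:38150751-38152000), over the promoter, held 361.2, 291.3, 251.2 and 226.9 scaled counts in Control and 520.1, 458.7, 512.4 and 469.6 in Tbx5G125R. The Control animals spread more than the Tbx5G125R animals but stayed below them, and the log2 fold change was 0.78 ± 0.11 (edgeR adjusted p = 4.84e-07). Dsp-1 (chr13:38148251-38149000), 2294 bp before the start, went from 207.0 ± 28.4 to 322.0 ± 23.1 scaled counts (mean ± SD, n = 4 each), a log2 fold change of 0.64 ± 0.11. All 15 listed regions within 500 kb of Dsp were higher on the gap scale, as were 88.4% of all listed regions. Apart from Dsp-1 and Dsp-2, none of the 15 was assigned to Dsp.

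Jup encodes plakoglobin, an armadillo protein shared by desmosomes and adherens junctions. Its 4 regions covered 13.25 kb around the start of the gene, and each was higher on the gap scale in all 4 Tbx5G125R animals than in any Control animal. Jup-2 (chr11:100391001-100391500), 6.54 kb downstream of the start, changed the most: 46.6, 20.3, 66.4 and 59.5 scaled counts in Control against 108.9, 89.6, 102.9 and 96.9 in Tbx5G125R. Control animal 2 was lowest, at 9 reads before scaling. The log2 fold change was 0.95 ± 0.21 (edgeR adjusted p = 0.000173), and from 0.78 to 1.15 when single animals were left out.

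Jup-3 (chr11:100397251-100398500), the promoter region, had the highest counts of the gene in the widest of its regions (1250 bp), with 303.2, 356.8, 311.1 and 337.3 in Control and 494.6, 485.3, 558.5 and 626.8 in Tbx5G125R. Its log2 fold change was 0.75 ± 0.095 (edgeR adjusted p = 1.06e-07). Jup-1 (chr11:100389501-100390000), 8.04 kb downstream of the start, had means of 48.0 ± 8.22 and 79.8 ± 9.43 (SD, n = 4 each) and a log2 fold change of 0.76. Jup-4 (chr11:100402251-100402750), 4412 bp upstream of the span, had 201.9 ± 43.2 and 305.2 ± 41.0 and a log2 fold change of 0.65. Dsg2, which encodes the desmosomal cadherin of cardiomyocytes, had no region. The nearest lay 99225 bp away inside B4galt6 and was lower in Tbx5G125R (log2 fold change -1.23).

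**Figure D2:**
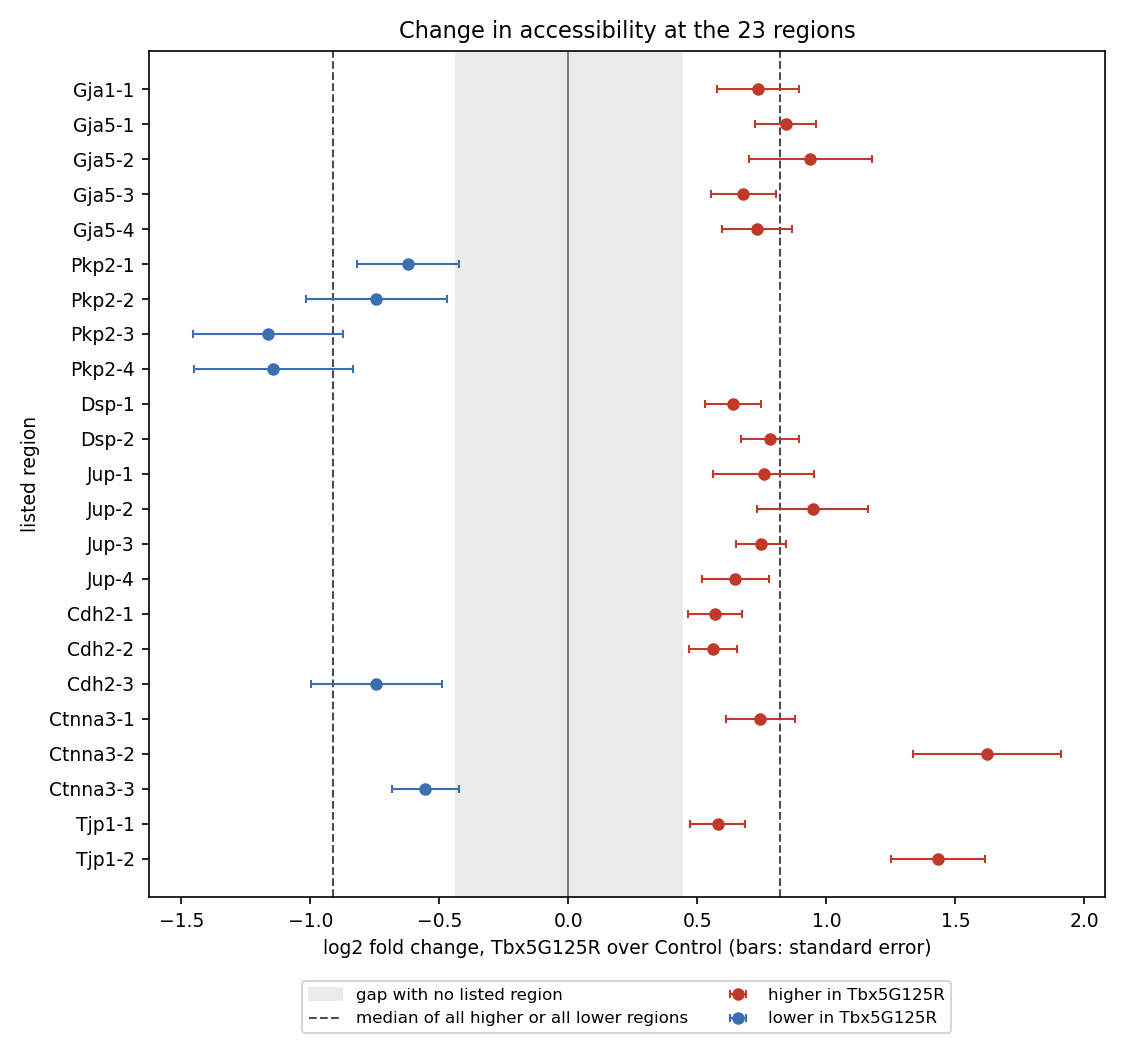
Log2 fold change (Tbx5G125R over Control, with standard error) of the 23 regions on the gap scale, the empty gap shaded and the median of all higher and all lower regions dashed (0.82 and -0.91). The 4 Pkp2 regions stand on the left while those of Dsp and Jup stand on the right, and Ctnna3-2 and Tjp1-2 exceed 1. If 0 were moved to the median of all listed regions, 7 of the 23 points would keep a positive value.

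Cdh2 encodes N-cadherin, the adhesion molecule of the adherens junction. Its 3 regions lay within 7.25 kb inside the 220-kb span and did not share a direction on the gap scale, though all 3 were below 0 with no change set at the median of the table. Cdh2-1 (chr18:16739001-16739750) had 259.4, 216.8, 217.7 and 230.7 scaled counts in Control and 368.2, 309.1, 380.7 and 325.3 in Tbx5G125R, with a log2 fold change of 0.57 ± 0.10. Cdh2-2 (chr18:16740751-16741250), 1000 bp further on, had 345.8, 277.8, 369.0 and 337.3 in Control and 541.6, 493.1, 489.3 and 475.6 in Tbx5G125R, with a log2 fold change of 0.56 ± 0.092, the smallest of the 17 higher regions. Both pairs of groups were apart.

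Cdh2-3 (chr18:16745751-16746250), 4500 bp beyond Cdh2-2, was lower. It held 56.9, 63.2, 38.4 and 44.6 in Control and 34.9, 31.5, 27.9 and 24.7 in Tbx5G125R, with a log2 fold change of -0.74 ± 0.25 (edgeR adjusted p = 0.00664). The lowest Control animal exceeded the highest Tbx5G125R animal by 3.51 scaled counts. Cdh2-3 lost its call with no change set at the lower edge of the gap (-0.31, edgeR adjusted p = 0.238) and with no scaling between libraries (-0.46, adjusted p = 0.268). A limit of 500 kb would add 1 region to Cdh2, 141377 bp away and higher on the gap scale (log2 fold change 0.89).

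Ctnna3 encodes αT-catenin, which binds plakophilin 2 and joins the desmosome to the adherens junction in the heart. It spans 1574 kb and also had regions on both sides. Ctnna3-2 (chr10:63434751-63435500), 5.03 kb from the low-coordinate end of the span, had 12.5, 18.1, 16.0 and 18.6 scaled counts in Control and 45.7, 57.1, 50.9 and 40.5 in Tbx5G125R. It had the lowest Control counts of the 23 and the largest fold change of the 23, 1.62 ± 0.29 on the log2 scale (edgeR adjusted p = 9.22e-06). Of all higher regions, 95.0% changed by less. Under every scale tried it was called higher.

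The promoter region, Ctnna3-1 (chr10:63430001-63430500), had 125.7, 88.1, 122.8 and 130.2 in Control and 181.4, 217.5, 176.9 and 224.4 in Tbx5G125R, with a log2 fold change of 0.74 ± 0.13. Ctnna3-3 (chr10:64430001-64430750) lay inside the same gene, 1000.3 kb from the low-coordinate end of the span and 609.3 kb from the nearest of the 3 tabled starts of Ctnna3. It held 259.9, 311.6, 215.7 and 230.7 in Control and 212.3, 151.6, 146.1 and 175.0 in Tbx5G125R. The groups came within 3.37 scaled counts of each other without overlapping, and the log2 fold change was -0.55 ± 0.13 (edgeR adjusted p = 0.000279), the smallest decrease of the 6. It lost its call at the lower edge of the gap (-0.12, edgeR adjusted p = 0.374) and with no scaling between libraries (-0.27, adjusted p = 0.394). Of all lower regions, 97.5% had a lower Control level.

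Tjp1 encodes ZO-1, the scaffold that binds connexin 43 at the edge of gap junction plaques. Tjp1-2 (chr7:65466751-65468000), upstream of the tabled start but inside the 232-kb span and 95.0 kb from the promoter region, held 78.5, 36.1, 81.4 and 50.8 scaled counts in Control and 151.9, 156.5, 185.5 and 227.4 in Tbx5G125R. The Control animals fell into a higher pair, animals 1 and 3 with 2 libraries each, and a lower pair with 1 library each. All 4 lay below the Tbx5G125R animals. The log2 fold change was 1.43 ± 0.18 (edgeR adjusted p = 9.05e-08), and like Ctnna3-2 it was called higher under every scale tried. Tjp1-1 (chr7:65371001-65371750), over the promoter, went from 199.0 ± 17.5 to 300.2 ± 25.6 (mean ± SD, n = 4 each), a log2 fold change of 0.58.

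**Figure D3:**
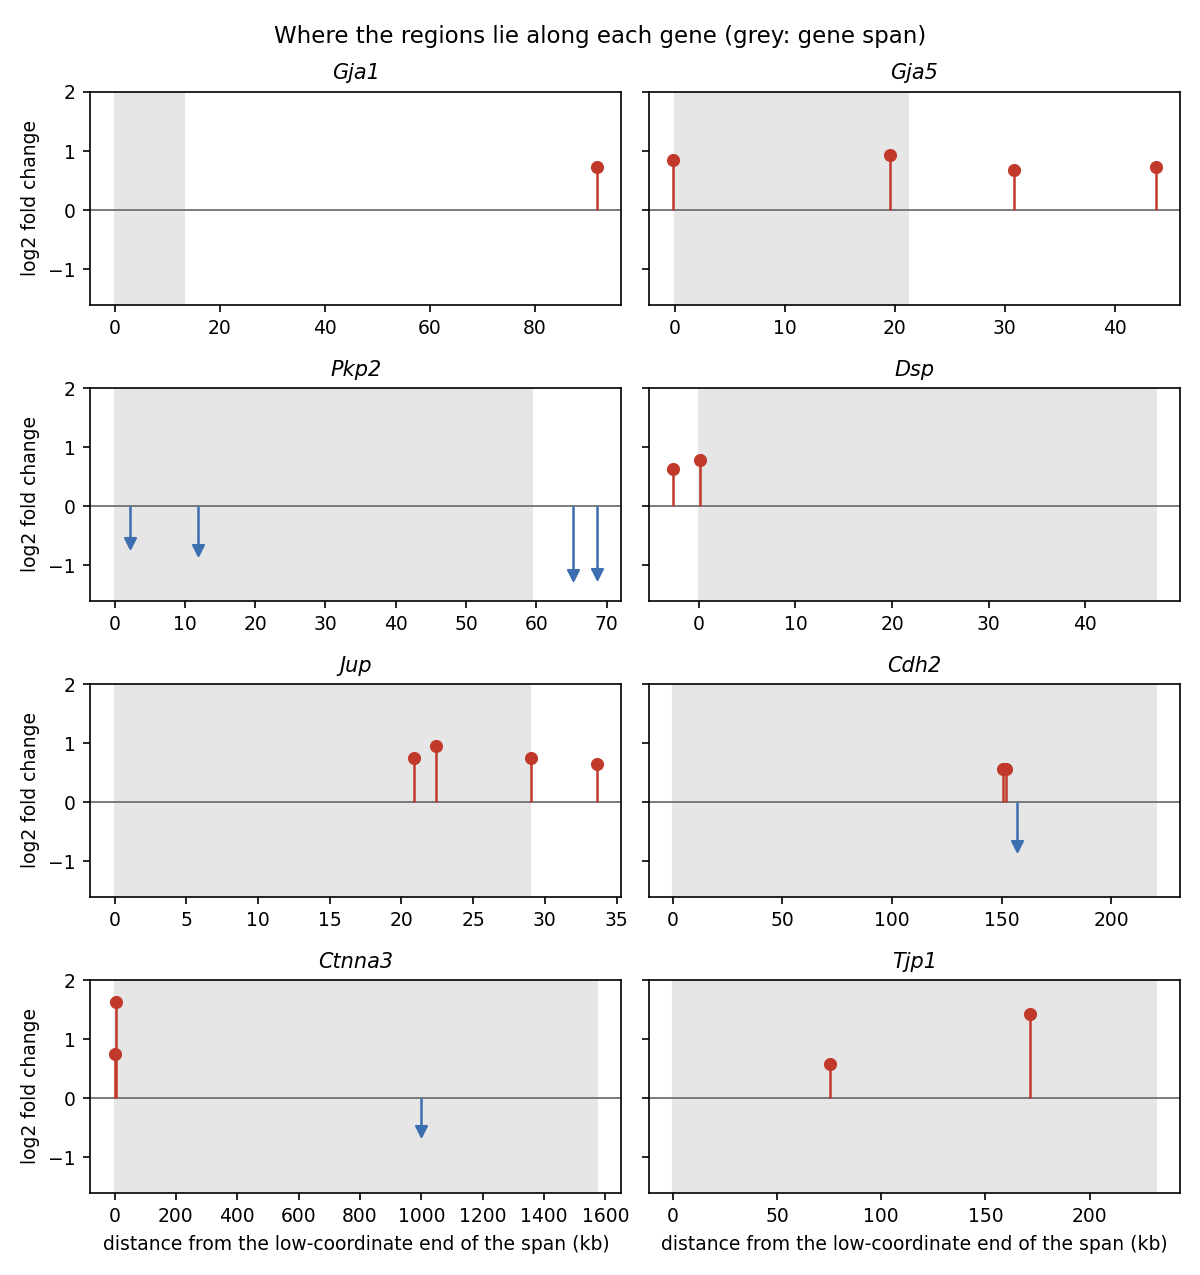
Log2 fold change on the gap scale against the distance of each region from the low-coordinate end of its gene (kb), with the gene span in grey, circles for higher and downward triangles for lower regions. Regions of 1 gene share a direction at Gja5, Pkp2, Dsp, Jup and Tjp1, while Cdh2 and Ctnna3 have 2 higher and 1 lower each. With no change set at the median of the table, 10 of the 17 circles would fall below 0.

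To compare the genes without any scale between animals, the reads over all regions of one gene were divided by those over another within each animal. These pairs were chosen with the fold changes known, and the ratios are given as values with no test. The ratio of Jup to Pkp2 was 2.02, 4.07, 2.43 and 3.24 in Control animals 1 to 4 and 8.32, 7.95, 6.46 and 9.50 in Tbx5G125R animals 1 to 4. That of Gja5 to Pkp2 ran from 1.69 to 3.51 in Control and from 4.90 to 8.18 in Tbx5G125R. That of Dsp to Pkp2 ran from 1.91 to 2.84 and from 5.38 to 7.02. In all 3 ratios the 2 lowest Control animals were 1 and 3, which had 2 libraries each. Every Tbx5G125R animal had 1 library. The part of the number of libraries in these ratios was not tested. None of these 3 ratios overlapped between genotypes, and their mean log2 difference was 1.49 to 1.51. They share the Pkp2 regions, so they are not separate observations. Each sets regions called higher over regions called lower in these same animals, so a separation follows from the choice. By contrast, Jup over Gja5 (1.16 to 1.34 in Control, 1.16 to 1.32 in Tbx5G125R) and Dsp over Jup (0.70 to 0.97 and 0.74 to 0.83) overlapped throughout.

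Ratios within a gene were taken in the same way. At Cdh2 and Ctnna3 the regions were sorted by the direction of their change in these animals, so a separation follows from that sorting. The 2 higher Cdh2 regions together had 7.82 to 15.3 times the reads of Cdh2-3 in Control and 25.5 to 32.4 times in Tbx5G125R. The 2 higher Ctnna3 regions had 0.53, 0.34, 0.64 and 0.65 times the reads of Ctnna3-3 in Control and 1.07, 1.81, 1.56 and 1.51 times in Tbx5G125R. In every Control animal Ctnna3-3 held more reads than the other 2 regions together, and in every Tbx5G125R animal it did not. At Pkp2 the regions beyond the span over those inside it gave 0.47 to 0.72 in Control and 0.28 to 0.64 in Tbx5G125R, which overlapped.

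**Figure D4:**
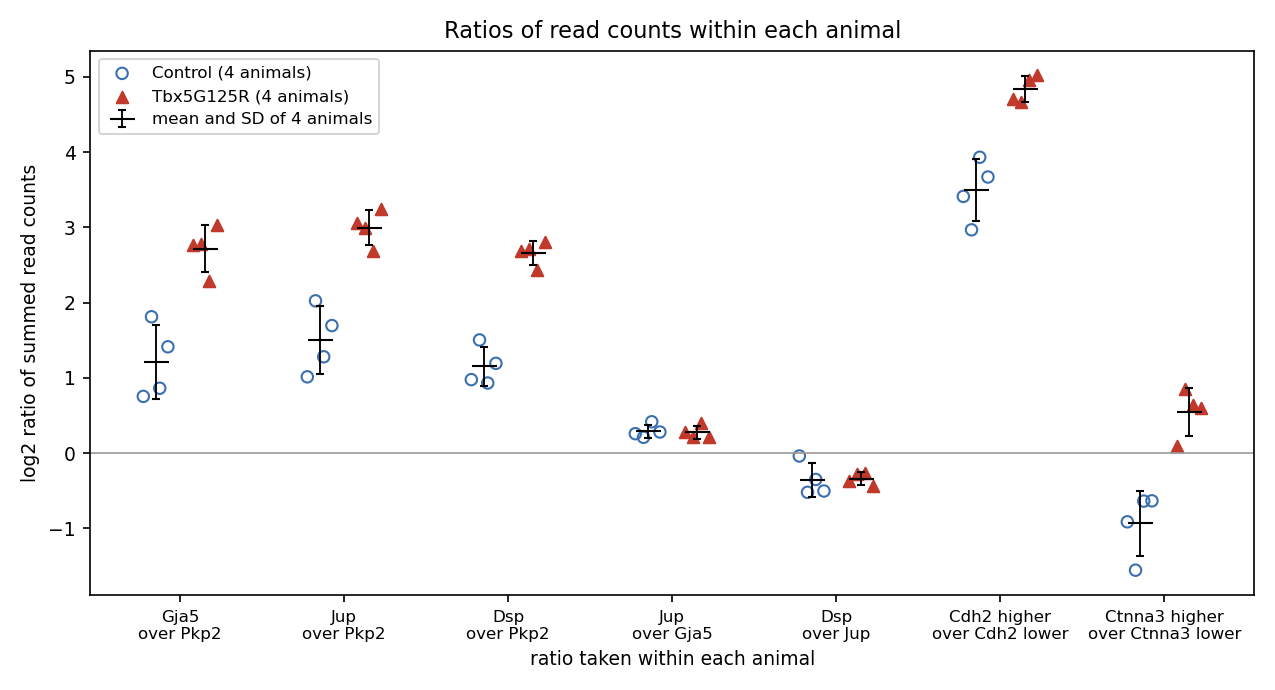
Log2 ratio of summed read counts between the regions of 2 genes, or between the higher and lower regions of 1 gene, taken within each animal, with the mean and SD of 4 Control (circles) and 4 Tbx5G125R animals (triangles). The ratios over Pkp2 and those within Cdh2 and Ctnna3 do not overlap between genotypes, while Jup over Gja5 and Dsp over Jup do. The former set higher over lower regions of these same animals, so their separation follows from the choice.

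Other junction genes were taken from 5 lists with 91 genes, of which 39 had a listed region. Of their 78 regions 69 were higher on the gap scale (88.5%) and 9 lower, near the 88.4% and 11.6% of the whole table, and their median log2 fold change was 0.78 for the higher and -0.93 for the lower ones. Among the other connexins and pannexins, 4 of 20 genes had 5 regions, all higher. Gjd2, a connexin known from neurons, had a region 30351 bp outside its span with a log2 fold change of 1.02 ± 0.20, and Panx2 had 0.83 ± 0.10. The list taken for the adherens junction had 21 regions, all higher. It was led by Cdh13, which encodes T-cadherin, with 8 regions and a log2 fold change of up to 2.07 ± 0.28. Ctnnal1 (1.17) and Tln2 (1.05), a talin that links integrins to actin, followed with 3 regions each. Being on the list does not place a protein at that junction. Tight junction and scaffold genes had 15 regions, all higher, with Jam3 (7 regions, up to 1.45), Magi2 (1.39) and Magi1 (0.78) leading. The groups overlapped at Magi2 (22.9 ± 16.2 scaled counts in Control against 50.6 ± 10.1 in Tbx5G125R, SD, n = 4 each). They also overlapped at Ctnnal1 (17.7 ± 7.06 against 39.7 ± 14.0).

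The lower regions of the lists stood in 2 of them. Among desmosome and intermediate filament genes, 6 of 8 regions were higher and 2 lower, the latter at Des, which encodes desmin (-0.86 ± 0.27), and at Dsc2, the desmosomal cadherin partner of Dsg2 (-0.67 ± 0.25, edgeR adjusted p = 0.0124). Des also had 1 higher region, and at its lower region the groups overlapped (68.4 ± 38.6 scaled counts in Control against 40.0 ± 4.94 in Tbx5G125R, SD, n = 4 each). Dsg1a had the largest change of that list (0.94) and Dsg1b the next among higher regions (0.78). Among genes associated with the disc, 22 of 29 regions were higher and 7 lower. Ank3, encoding ankyrin G, which holds sodium channels at the disc, had a region at 1.49 ± 0.35 and another that was lower. Xirp2, an actin-binding protein of the disc, had 1.35. Nrap, which anchors actin at the muscle cell ends, had a lower region at -1.25 ± 0.37, where Control ranged widely (43.6 ± 29.4 scaled counts against 18.9 ± 3.81, SD, n = 4 each) and the groups overlapped, and it also had 1 higher region.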

How the data were processed

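The labels gave the genotype of each ATAC-seq library. The authors deposited 1 table of regions assembled from bins of 500 bp on mm10, with the raw read count of each library. Their processing notes name BWA, bedtools and DESeq2. Versions, shifting for the transposase and removal of duplicates were not given in the sources used here. Whether a count covers a whole region or only its most different bin is not given. In 4 libraries the authors had deposited a count of 0 as 0.1 (26 values), which gives those columns the form of estimated counts, and these were set to 0 again. The table also held the authors' own log2 fold changes, adjusted p-values and group means, which were not used. The deposited group means, a signal per region, were made by the authors as geometric means of the raw counts.

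Libraries of 1 animal were summed. Within a genotype, animals were scaled to each other by their median log2 ratio across the 10010 regions. Between genotypes, no change was set at the lowest kernel density (bandwidth 0.05, log2) between the modes of lower and higher regions. edgeR 4.0.16 (R 4.3.3) fitted 4 against 4 animals with no covariate in 1 quasi-likelihood model over all regions, with Benjamini-Hochberg adjustment at 0.05. The standard error of a log2 fold change was derived from the test statistic. The fit was tested on simulated data, and the biological coefficient of variation was 11.5%. The simulated fit was given its true scale, so it did not test the choice of scale between genotypes. The study's methods use DESeq2, which was run as an alternative (1.42.0), as were limma 3.58.1 with pseudocounts of 1, 0.1 and 5, a minimum count of 10, other scales, handling of repeat libraries, a replicate block and leaving out animals. Genes and promoters are from RefSeq (GRCm38.p6), and the gene table gives no strand, so a strand is named only where the promoter table gives one. Full values by animal were given for the region of each gene with the largest change and for every region of genes with a lower region, and other regions were added. Up to 3 genes were named per list by size of change, with a few more chosen after their values were seen. One result for a single gene of the lists is not reported here. The 10 genes and all lists were chosen with earlier results of these data known. Replicate numbers were not used to pair the animals in the main fit. Python 3.11.15 with pandas 2.3.3 was used.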

Additional observations from a re-analysis of the deposited data

How the results depend on the processing

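The scale between genotypes decided most calls. Against 17 higher and 6 lower regions of the 23, there were 17 and 1 with no scaling between libraries, 17 and 2 with no change at the lower edge of the gap, 7 and 6 at the upper edge, and 2 and 6 both with the median of the table and with TMM factors over it. Over all 10010 regions these settings called 8846 higher and 216 lower, 8846 and 358, 5502 and 1164, 859 and 1227, and 805 and 1261, against 8846 and 1164. The 2 still higher under the last pair were Ctnna3-2 and Tjp1-2. With the median of the table the sign turned, at values that missed the threshold, at Gja1-1 (-0.018), Gja5-3 (-0.073), Gja5-4 (-0.019), Dsp-1 (-0.11), Jup-3 (-0.0050), Jup-4 (-0.10), Cdh2-1 (-0.18), Cdh2-2 (-0.19), Ctnna3-1 (-0.0087) and Tjp1-1 (-0.17). Under TMM it turned at Gja1-1 (-0.033), Gja5-3 (-0.088), Gja5-4 (-0.035), Dsp-1 (-0.13), Jup-1 (-0.011), Jup-3 (-0.021), Jup-4 (-0.12), Cdh2-1 (-0.20), Cdh2-2 (-0.21), Ctnna3-1 (-0.024) and Tjp1-1 (-0.19). The median of the 23 stayed below that of all regions under each of these scales (0.68 against 0.78 on the gap scale, -0.07 against 0.03 with the median of the table).

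DESeq2, limma with each pseudocount, either handling of the repeat libraries and leaving out each animal in turn gave 17 and 6 with every sign kept. All of these used the gap scale or set it anew from the gap. They therefore could not show whether the signs depend on that scale. A minimum count of 10 in every animal kept 20 of the 23 regions and gave 15 and 5, and an adjusted p of 0.01 gave 17 and 5. The replicate block also gave 17 and 6. Same-numbered animals deviated together with correlations of 0.18, 0.006, 0.07 and 0.03. Control animal 3 correlated best with Tbx5G125R animal 4 (0.11). Control animals 1, 2 and 4 correlated best with the animal of their own number, by little in 2 and 4. Whether a number marks a pair of animals cannot be told from these values. Assignment by span alone gave 16 regions, limits of 10 kb and 500 kb gave 21 and 25, and taking the nearest of all annotated genes, chosen after seeing the data, gave 17, without Gja1-1, Gja5-3, Gja5-4, Pkp2-3, Pkp2-4 and Jup-4. Recovering the scale from the deposited group means could not be run, because they are means of raw counts. Depth limited the weakest regions: Ctnna3-2 had as few as 8 reads in an animal, and repeat libraries of 1 animal differed over the 23 regions by an SD of 0.23 to 0.34 on the log2 scale.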
